A study of Sus scrofa with 6 samples.

Results

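The genes described here encode developmental transcription factors of 12 families, the T-box, forkhead, SOX, LIM homeobox, paired box, sine oculis homeobox, Iroquois, NK homeobox, paired-like and head homeobox, TALE, GATA, and GLI and ZIC families. Members were taken by gene symbol, from probe sets to which the platform annotation gives a single symbol, and where a gene had several probe sets, that of highest mean level was used. SOX9, LHX8, PAX9 and FOXM1 were left out by the rule, and their values are given only beside the members. This gave 92 genes, from 99 probe sets, out of 10872 named genes on the array. LMX1A and LMX1B are not among them because the rule asks for a further digit after LMX1. The hindlimb factors TBX4 and PITX1, and TBX2, PRRX2 and FOXC1, had no probe set with a single usable symbol and are not analysed here.

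These families bind DNA through a shared domain each, such as the T-box, the forkhead or the homeodomain, and many were found as genes that lay out the body plan of the embryo. Cells of the adult skeleton and its marrow stroma keep part of this program, and the set of factors that stays on can differ with the place where the cells arose. In the jaw the mesenchyme comes from the cranial neural crest, and in the tibia it comes from lateral mesoderm of the limb bud. Factors such as PRRX1, TBX15 and TBX18 are known in the mesenchyme of the skeleton, while PAX6, OTX2 and NKX2-1 are better known from the eye, the forebrain and the thyroid.

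RNA was measured on 6 Affymetrix arrays in primary cultures of bone marrow mesenchymal stem cells, at passage 0 and 80% confluence, taken from American Yorkshire pigs, females of 4 months. Of these cultures, 3 came from marrow of the mandibular symphysis and 3 from marrow of the tibia, and the design text names 3 pigs as donors for both places. The labels name no transgene and no treatment. Marrow was plated unsorted, so other adherent cells of the marrow could grow beside the stroma, and the labels do not say which cultures share a pig. The values are log2 levels after RMA, which makes the distributions of the arrays alike. Array medians lay between 5.63 and 5.71. Precision is limited by how few arrays there are. Probe sets differ in how well they bind, so an order of levels between genes is not an order of RNA amounts. Over all values the lower quartile was 3.89 and the upper quartile 7.52, and a level near or under the lower quartile cannot be told from background.

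On the arrays labelled mandibular 2 and tibial 3, positional genes went against the label. LHX8, known from tooth and palate mesenchyme and not a member, measured 8.26, 3.70 and 8.25 on the arrays labelled mandibular 1, 2 and 3 and 4.77, 4.10 and 8.67 on those labelled tibial 1, 2 and 3. Results are therefore given for all 6 arrays and again without this pair of arrays, which leaves 2 arrays a site. The pair was picked with such values known, and the smaller fit adds no independent support. Of 12 measured stromal cell markers, 11 had a mean above the median of all values. POSTN, a stromal matrix gene of this list chosen after its values were seen, measured 11.89, 5.60 and 9.59 against 7.01, 4.50 and 11.40. It was highest on mandibular 1, mandibular 3 and tibial 3, with a range of 7.39, and its part in the levels of members high on those arrays was not tested. The stromal list as a whole did not share this order. NT5E, CXCL12, COL3A1 and FN1, also chosen after their values were seen, had their 3 highest levels on mandibular 2, tibial 1 and tibial 2. LUM had the same 3 highest arrays as POSTN, and the remaining measured markers of the list had neither order. Macrophage and monocyte markers, 15 of 20 listed, had a summed level (log2 of the sum of linear values) between 9.25 and 10.84 on the mandibular arrays and between 9.90 and 13.30 on the tibial arrays. It was highest on tibial 1, at 13.30, then on tibial 2, at 12.66, and on mandibular 2, at 10.84. All 15 had the lower mandibular mean, with a median difference of -2.18, and 0 were called over 6 arrays and 12 without the pair. None of 8 lymphocyte markers had a mean above the median of all values. The summed level lay between 7.45 and 8.06 for 6 endothelial markers, between 7.12 and 7.32 for 8 lymphocyte markers, between 7.30 and 7.66 for 7 erythroid and megakaryocyte markers, between 7.37 and 8.67 for 5 skeletal muscle markers, between 7.99 and 8.29 for 8 epithelial markers and between 7.03 and 7.37 for 3 Schwann and neural markers.

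The comparison asks which of these factors differ between marrow stroma of the mandible and of the tibia. By label, no member differed between sites past the threshold. With limma on all probe sets, 0 of 92 members passed at an adjusted p under 0.05 (smallest adjusted p = 0.9995), as did 0 of the 27558 probe sets (0%). At an unadjusted p under 0.05 there was 1 member, NKX6-1, where 3.03% of all probe sets fell under that value. Of the 92, 44 had the higher mean in mandibular cultures and 48 in tibial cultures, and their median difference (mandibular minus tibial) was -0.02 on the log2 scale, against 0.01 over all named genes. All 3 mandibular values lay above all 3 tibial values for 3 members, FOXE1, GATA2 and FOXE3, where 3.35% of all probe sets had this order. All 3 lay below them for 4 members, NKX6-1, NKX2-1, NKX2-4 and FOXR1, where 3.57% did.

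Without the arrays labelled mandibular 2 and tibial 3, 1 of 92 members was called, PAX6, beside 0.708% of all probe sets. In that fit 13 members had an unadjusted p under 0.05, where 9.5% of all probe sets did. For 35 of 92 members the 2 and 2 values did not overlap, as they did not for 37.3% of all probe sets.

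The range from the lowest to the highest array was at least 1 log2 unit, or 2-fold, for 13 of 92 members (14.1%), against 14.9% of all named genes, and it reached 3.43 for GATA6. For the other 79 members the range lay between 0.15 and 0.98 and the difference between sites between -0.39 and 0.39. Among members with a mean above the median of all values, 10 of 43 had such a range, against 15.8% of named genes at those levels, and among those at or under it 3 of 49, against 13.4%. A range under 0.5 was found for 40 of the 92. Means at or under the lower quartile of all values were found for 6 members, ZIC4, ZIC1, TBX5, OTX2, SOX15 and NKX1-2.

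**Figure D1:**
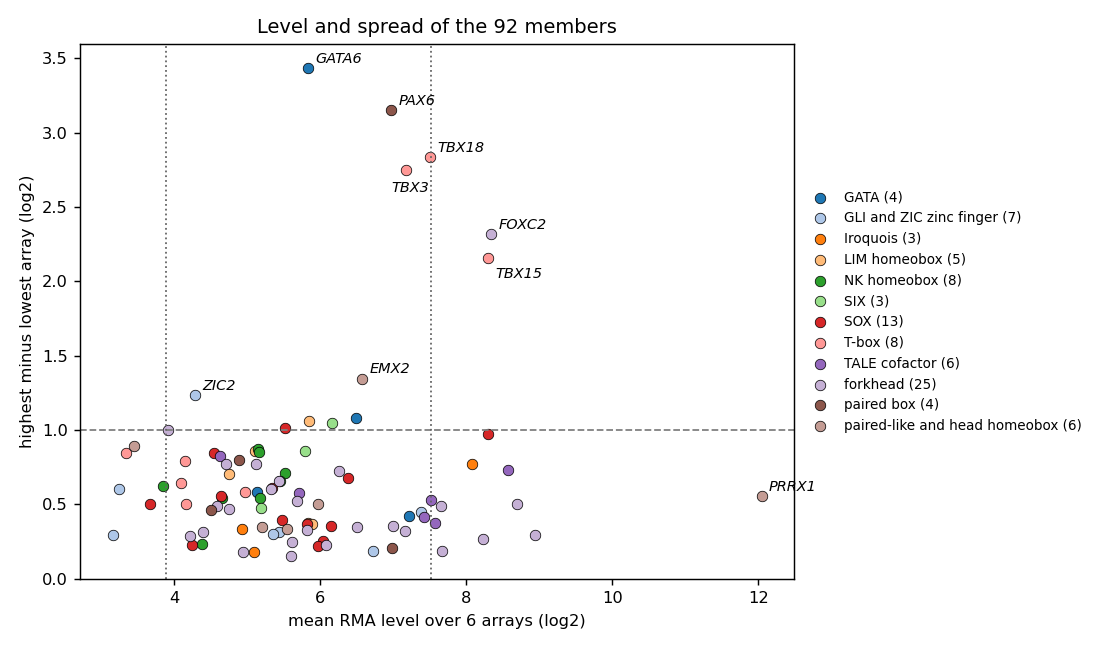
Mean level over the 6 arrays (log2, horizontal axis) against the range between the highest and the lowest array (log2, vertical axis) for the 92 members, 1 point a gene, coloured by family with the number of members in brackets. The dashed line marks a range of 1, the dotted lines mark the lower and upper quartiles of all values, 3.89 and 7.52, and 6 genes (GATA6, PAX6, TBX18, TBX3, FOXC2 and TBX15) lie above a range of 2.

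Among the 8 T-box factors the range was at least 1 for 3, and its median was 0.82, against 0.54 over all 92 members. TBX3, a repressor needed for limb and mammary gland patterning, measured 8.11, 7.17 and 8.01 on the arrays labelled mandibular 1, 2 and 3 and 5.36, 6.30 and 8.11 on those labelled tibial 1, 2 and 3. The level on tibial 3 matched the highest mandibular level, tibial 1 was the lowest, and the sites overlapped through tibial 3 alone. Its difference between sites was 1.17 (SE 0.67), or 2.26-fold, with 7.76 ± 0.52 (SD, n = 3) against 6.59 ± 1.40 (SD, n = 3), and it did not pass (limma adjusted p = 0.9995). Leaving out single arrays gave 0.56 without tibial 1 and 1.93 without tibial 3. Without mandibular 2 and tibial 3 the difference was 2.23 (SE 0.33), or 4.69-fold (limma adjusted p = 0.0638). In a bulk culture, fewer cells that express a gene and less RNA in each cell cannot be told apart. TBX3 was lowest on tibial 1, then tibial 2, then mandibular 2, and the summed macrophage level was highest on these arrays in that order. The part of macrophages in the TBX3 levels was not tested.

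TBX18 and TBX15, closely related repressors of skeletal and smooth muscle mesenchyme, had their higher levels on the other arrays. TBX18 measured 5.87, 8.11 and 6.88 in the cultures labelled mandibular and 8.40, 8.71 and 7.04 in those labelled tibial. TBX15 measured 7.06, 8.97 and 7.78 against 8.96, 9.21 and 7.81. In both genes the 3 highest levels were on mandibular 2, tibial 1 and tibial 2, and tibial 3 lay between mandibular 3 and these arrays. The site differences were -1.10 (SE 0.65) for TBX18 and -0.73 (SE 0.56) for TBX15, and neither passed (limma adjusted p = 0.9995). Leaving out the array labelled mandibular 2 gave -1.67 and -1.24, and leaving out mandibular 1 gave -0.56 and -0.29. Without mandibular 2 and tibial 3 they differed by -2.18 (SE 0.35) and -1.67 (SE 0.28), again without a call (limma adjusted p = 0.0851 and 0.0925). The summed macrophage level was also highest on tibial 1, tibial 2 and mandibular 2, and its part in these levels was not tested.

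The remaining T-box members had ranges under 1. TBX5, which specifies the forelimb and was chosen after its values were seen, measured 3.10, 3.95 and 3.13 against 3.61, 3.13 and 3.12. All arrays but mandibular 2 lay under the lower quartile of all values. The rest of the family, also chosen after their values were seen, were TBX20, a heart factor, TBX21, a factor of T helper cells, TBX22, a palate factor, and TBX19, a pituitary factor. Their ranges were 0.79, 0.64, 0.51 and 0.58.

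**Figure D2:**
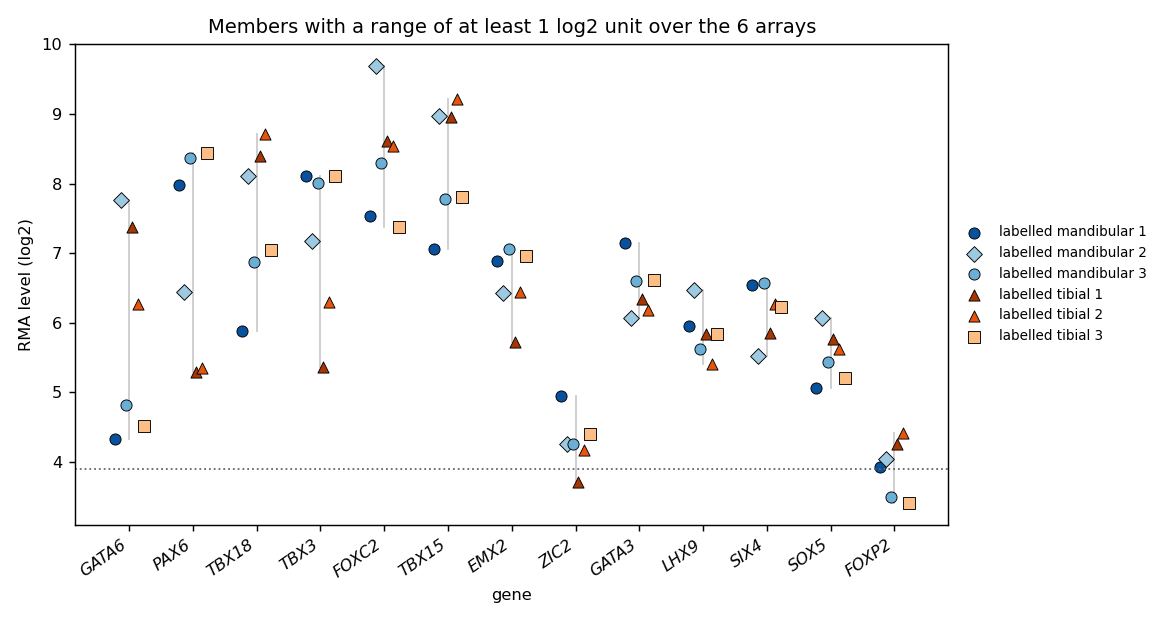
Log2 RMA level (vertical axis) of the 13 members whose range reached 1, with 1 point for each of the 6 arrays and a line from the lowest to the highest. Blue marks are arrays labelled mandibular and orange marks arrays labelled tibial, a diamond marks mandibular 2 and a square tibial 3, and the dotted line is the lower quartile of all values. PAX6 and TBX3 are high on mandibular 1, mandibular 3 and tibial 3, while GATA6, TBX18 and TBX15 are high on mandibular 2, tibial 1 and tibial 2.

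PAX6, the homeobox factor that directs eye formation, had the largest range of the 4 paired box genes. It measured 7.97, 6.44 and 8.37 in the cultures labelled mandibular and 5.29, 5.35 and 8.44 in those labelled tibial. Tibial 3 had the highest level of all arrays, mandibular 2 stood between the sets, and tibial 1 and 2 were lowest. The site difference was 1.23 (SE 0.93), with 7.59 ± 1.02 (SD, n = 3) against 6.36 ± 1.80 (SD, n = 3), and it did not pass (limma adjusted p = 0.9995). Without tibial 3 it was 2.27 and without tibial 1 it was 0.70. Without mandibular 2 and tibial 3 it was 2.85 (SE 0.20), or 7.21-fold, the member called in that fit (limma adjusted p = 0.00981). The arrays with the lowest PAX6 levels, tibial 1, tibial 2 and mandibular 2, had the highest summed macrophage levels. The part of macrophages in the PAX6 levels was not tested. PAX1, a factor of the sclerotome, measured 7.12, 6.91 and 6.99 against 7.03, 6.95 and 6.95 and varied by 0.21 in all. PAX9, a jaw and tooth factor outside the set and a close relative of PAX1, measured 7.35, 5.78 and 7.35 against 5.01, 5.75 and 7.80, high on the same arrays as PAX6.

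Among paired-like and head homeobox genes, EMX2, which acts in the forebrain, the urogenital system and the scapula, was high on the same arrays. It measured 6.88, 6.42 and 7.06 in mandibular against 5.72, 6.44 and 6.95 in tibial cultures. Tibial 1 was lowest, mandibular 2 and tibial 2 were nearly equal, and the site difference was 0.42 (SE 0.33). It was 0.09 without tibial 1 and 0.89 (SE 0.28) without mandibular 2 and tibial 3. PRRX1, a homeobox gene of limb and craniofacial mesenchyme, had a mean of 12.05, above the upper quartile of all values. It measured 12.03, 12.28 and 12.04 against 11.73, 12.28 and 11.92, and the sites overlapped, with a difference of 0.14 (SE 0.17). It was 0.013 without tibial 1, 0.29 without tibial 2 and 0.027 without mandibular 2 and tibial 3. IRX3, an Iroquois homeobox gene, measured 8.56, 7.90 and 8.13 against 7.85, 7.79 and 8.29, with its 3 highest levels on mandibular 1, tibial 3 and mandibular 3. Its site difference was 0.22 (SE 0.22), with 0.04 without mandibular 1, 0.38 without tibial 3 and 0.53 (SE 0.21) without mandibular 2 and tibial 3.

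GATA6, a zinc finger factor of heart and endoderm, had the largest range of the 92 genes, 3.43, or 10.8-fold. It measured 4.32, 7.76 and 4.81 in the cultures labelled mandibular and 7.37, 6.27 and 4.51 in those labelled tibial. Levels were high on mandibular 2, tibial 1 and tibial 2, and the other 3 arrays lay between 4.32 and 4.81. The difference between the labelled sites was -0.42 (SE 1.06). It turned to 0.24 without tibial 1, was -1.48 without mandibular 2, and was -2.25 (SE 0.39) without mandibular 2 and tibial 3 (limma adjusted p = 0.104). These are again the arrays with the highest summed macrophage level. GATA6 was highest on mandibular 2 and the macrophage level on tibial 1. The part of macrophages in the GATA6 levels was not tested.

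GATA3, known for T cells and for branchial arch and kidney development, measured 7.15, 6.06 and 6.59 against 6.34, 6.18 and 6.62. Mandibular 1 was highest and mandibular 2 lowest, and the site difference was 0.22 (SE 0.28). It turned to -0.05 without mandibular 1, was 0.49 without mandibular 2, and was 0.61 (SE 0.24) without mandibular 2 and tibial 3. The 8 lymphocyte markers measured, given above, had no mean above the median of all values. A part of lymphocytes in the GATA3 levels was not tested. GATA2, a factor of blood stem cells and endothelium, measured 7.51, 7.22 and 7.22 against 7.17, 7.13 and 7.09. Its sites did not overlap, with a difference of 0.19 (SE 0.13) that was 0.09 without mandibular 1. The summed endothelial level was higher on each tibial array than on any mandibular array, at 7.67 or more against 7.59 or less. Its 6 markers did not share this order, since 4 had the higher tibial mean and 2, KDR and CLDN5, the higher mandibular mean. Only 1 of the 6 had a mean above the median of all values. The part of endothelial cells in the GATA2 levels was not tested.

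Forkhead genes were the largest family, with 25 members, and only FOXC2 and FOXP2 had a range of at least 1. FOXC2, a mesenchymal forkhead factor of somites and lymphatic vessels, measured 7.53, 9.69 and 8.29 in mandibular and 8.62, 8.55 and 7.38 in tibial cultures. Mandibular 2 stood 1.08 above the next array, tibial 3 was lowest, and the site difference of 0.32 (SE 0.59) turned to -0.27 without mandibular 2. It was 0.81 without mandibular 1 and -0.67 (SE 0.28) without mandibular 2 and tibial 3. FOXP2, known for its part in brain circuits for vocal learning, measured 3.92, 4.03 and 3.49 against 4.26, 4.41 and 3.41, levels close to the lower quartile. Its difference of -0.21 (SE 0.29) was -0.02 without tibial 2 and -0.52 without tibial 3. It was -0.63 (SE 0.21) without mandibular 2 and tibial 3.

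FOXK1, a widely expressed forkhead factor, measured 8.92, 8.89 and 9.09 against 8.80, 9.05 and 8.91, with a range of 0.30. Of the members without overlap, FOXE1, a thyroid and palate factor, measured 5.13, 5.35 and 5.43 against 5.12, 4.66 and 5.05, a difference of 0.36 (SE 0.16). Without tibial 2 this was 0.22. FOXE3, a lens factor, measured 7.01, 6.98 and 7.26 against 6.93, 6.91 and 6.93, a difference of 0.16 (SE 0.12). Mandibular 3 set most of it, and without that array the difference was 0.07. FOXR1 measured 4.19, 4.05 and 4.15 against 4.31, 4.26 and 4.34, a difference of -0.17 (SE 0.11) at levels near the lower quartile. For these 3 genes the limma adjusted p was 0.9995. FOXO1, FOXO3 and FOXO4, targets of insulin signalling that were chosen after their values were seen, had ranges of 0.32, 0.49 and 0.15.

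The 13 SOX genes had a median range of 0.50, near the 0.51 over all named genes. SOX5, which acts with SOX6 and SOX9 in cartilage, measured 5.05, 6.07 and 5.44 against 5.76, 5.62 and 5.21. Mandibular 2 was highest, then tibial 1 and tibial 2, and the site difference was -0.01 (SE 0.28). It was -0.28 without mandibular 2 and 0.22 without mandibular 1, and -0.45 (SE 0.20) without mandibular 2 and tibial 3. SOX4, a factor of progenitor cells in many tissues, just missed a range of 1. It measured 7.95, 8.75 and 8.01 against 8.60, 8.74 and 7.77, so the levels on mandibular 2, tibial 1 and tibial 2 were the 3 highest and tibial 3 the lowest. The difference was -0.14 (SE 0.32), turned to 0.05 without tibial 2, was -0.44 without tibial 3, and was -0.69 (SE 0.17) without mandibular 2 and tibial 3 (limma adjusted p = 0.214). SOX9 itself, outside the set, measured 8.79, 8.95 and 8.20 against 7.84, 9.09 and 8.11 and did not follow this arrangement, since tibial 1 was lowest.

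LIM homeobox genes need LDB adaptor proteins to act, and LMO proteins compete for the same adaptor. LHX9, found in limb mesenchyme and gonad, measured 5.95, 6.46 and 5.62 against 5.84, 5.40 and 5.83. Mandibular 2 was highest and the sites overlapped, with a difference of 0.32 (SE 0.24) that was 0.09 without mandibular 2, 0.52 without mandibular 3 and 0.16 without mandibular 2 and tibial 3. LHX6, a factor of first-arch mesenchyme and of cortical interneurons, measured 5.97, 5.73 and 5.95 against 5.97, 5.69 and 6.06 and thus stayed within 0.37. LHX8 had a range of 4.96 on the same arrays. The adaptor LDB1 and the competitor LMO4, chosen after their values were seen, each had a range of 0.27. LMO3 measured 2.84, 2.97 and 2.74 against 4.25, 3.07 and 2.35, with all arrays but tibial 1 under the lower quartile.

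SIX2 and SIX4, of the sine oculis homeobox family, bind DNA, EYA proteins join them as coactivators, and DACH1 acts with them as a corepressor. SIX4 measured 6.54, 5.52 and 6.56 against 5.86, 6.26 and 6.22. Mandibular 2 was lowest and mandibular 1 and 3 highest, with a site difference of 0.09 (SE 0.30) that became -0.08 without mandibular 3, 0.44 without mandibular 2, and 0.49 (SE 0.20) without mandibular 2 and tibial 3. SIX2, a factor of kidney and palate mesenchyme chosen after its values were seen, measured 5.93, 5.68 and 5.32 against 6.18, 6.13 and 5.55. DACH1 measured 5.90, 4.52 and 6.26 against 4.47, 4.46 and 6.97, and so was high on mandibular 1, mandibular 3 and tibial 3, as were PAX6, TBX3 and LHX8. Its site difference was 0.26 (SE 0.77), which turned to -0.16 without tibial 2 and reached 1.10 without tibial 3. Without mandibular 2 and tibial 3 it was 1.62 (limma adjusted p = 0.0398), the only gene of the 15 measured partner genes called in that fit. EYA1 measured 7.90, 8.20 and 7.23 against 8.32, 8.75 and 7.31, and its 3 highest levels were on mandibular 2, tibial 1 and tibial 2. Its difference of -0.35 (SE 0.41) was -0.04 without tibial 2, -0.76 without tibial 3 and -0.97 (SE 0.29) without mandibular 2 and tibial 3. EYA4 was lowest on mandibular 2, with 6.89, 5.19 and 6.37 against 6.33, 5.73 and 6.49. Its difference of -0.03 (SE 0.44) was 0.45 without mandibular 2 and 0.60 without mandibular 2 and tibial 3. Of the 15 measured of 26 listed partners, 0 were called over 6 arrays, 9 had the higher mandibular mean, 6 a range of at least 1, and their median difference was 0.04.

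**Figure D3:**
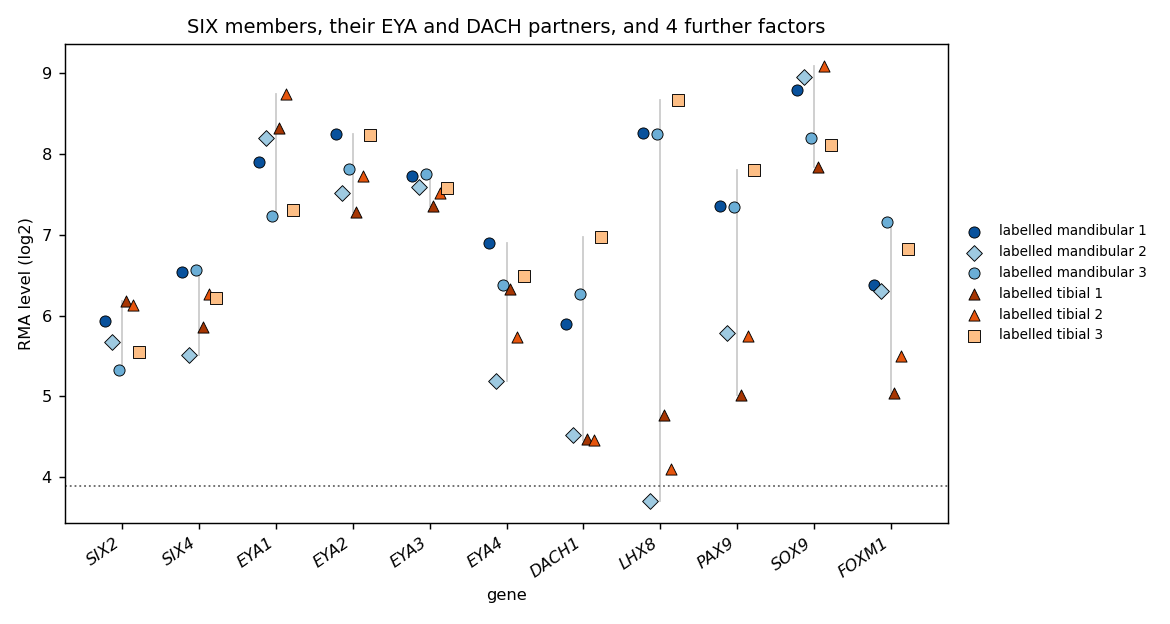
Log2 RMA level (vertical axis) of SIX2, SIX4, the 4 EYA coactivators, the corepressor DACH1 and 4 factors outside the set (LHX8, PAX9, SOX9 and FOXM1), with 1 point for each of the 6 arrays and symbols by labelled site, a diamond for mandibular 2 and a square for tibial 3. The dotted line is the lower quartile of all values. DACH1, LHX8 and PAX9 are high on mandibular 1, mandibular 3 and tibial 3, EYA1 is highest on tibial 2, and SOX9 shows neither order. FOXM1 is also highest on mandibular 1, mandibular 3 and tibial 3, with mandibular 2 close to mandibular 1.

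TALE homeobox proteins MEIS and PBX bind DNA together with HOX proteins, and their 6 members had a median range of 0.56, against 0.51 over all named genes. All 6 had the higher mandibular mean, by 0.02 to 0.35, where 51.3% of all named genes did, and 0 were called. Without mandibular 2 and tibial 3, MEIS1 was -0.075 and MEIS3, chosen after its values were seen, -0.038, while the others stayed higher in mandibular cultures. MEIS1 measured 8.30, 8.62 and 8.94 against 8.46, 8.92 and 8.20, with overlap and a difference of 0.09 (SE 0.24) that turned to -0.07 without tibial 3. MEIS2, chosen after its values were seen as the largest difference of the family, measured 5.02, 4.70 and 4.72 against 4.37, 4.19 and 4.82. The 2 lowest levels were on tibial 1 and tibial 2, and the sites overlapped through tibial 3, with a difference of 0.35 (SE 0.19). It was 0.22 without tibial 2, 0.54 without tibial 3 and 0.59 (SE 0.19) without mandibular 2 and tibial 3.

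GLI factors carry out hedgehog signalling, and GLI3 acts mostly as its repressor in the limb bud. GLI3 measured 7.27, 7.62 and 7.29 against 7.31, 7.60 and 7.17, with a difference of 0.03 (SE 0.16) that turned to -0.08 without mandibular 2. GLI1, itself a hedgehog target, and GLI2 were chosen after their values were seen and had ranges of 0.32 and 0.19. Of 16 listed hedgehog genes 8 were measured, 0 were called, 3 had the higher mandibular mean, and none had a range of 1. The median difference of the 8 was -0.09. IHH, SHH and DHH, the 3 ligands, had ranges of 0.76, 0.62 and 0.56, and the co-receptor GAS1 differed by -0.28 (SE 0.14), or by -0.46 without mandibular 2 and tibial 3. The transducer SMO, chosen after its values were seen, varied by 0.09. ZIC2, a forebrain zinc finger factor, measured 4.94, 4.25 and 4.25 against 3.71, 4.16 and 4.40, highest on mandibular 1 and lowest on tibial 1. Its difference of 0.39 (SE 0.26) was 0.16 without mandibular 1, 0.55 without tibial 3 and 0.66 without mandibular 2 and tibial 3, at levels low on the array.

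NK homeobox genes, which act in heart, thyroid, lung and ventral neural tube, all had means at or under the median of all values, and 6 of 8 had the higher tibial mean. So did 2249 of the 4007 named genes at such levels. NKX6-1, of motor neurons and pancreatic beta cells, measured 4.49, 4.50 and 4.40 against 4.95, 4.72 and 4.87. The sites did not overlap, and the difference was -0.38 (SE 0.11), with an unadjusted p of 0.0137 and an adjusted p of 0.9995 in limma. Across single omissions it stayed between -0.44 and -0.33. NKX2-1, a thyroid and lung factor, measured 5.20, 4.74 and 4.97 against 5.59, 5.23 and 5.25, with a difference of -0.39 (SE 0.17). It was -0.50 without mandibular 1 and -0.27 without tibial 1. NKX2-4 measured 4.95, 5.09 and 5.11 against 5.50, 5.12 and 5.33, with a difference of -0.27 (SE 0.14) that was -0.18 without tibial 1. NKX2-5, a heart factor, measured 5.56, 5.44 and 5.41 against 5.92, 5.21 and 5.56, where tibial 1 was highest, tibial 2 lowest and the difference -0.09 (SE 0.19). It turned to 0.09 without tibial 1.

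The array labelled tibial 1 held the highest value of 21 of the 49 members at or under the median of all values, and of 33.1% of all named genes at such levels. For members above the median it held the highest value of 6 of 43. Its lower quartile over all probe sets was 3.94, against 3.86 to 3.91 on the other arrays, and its median was 5.71, against 5.63 to 5.67, while its upper quartile was the lowest, at 7.47 against 7.52 to 7.55. It held the lowest value of 35.4% of named genes above the median, and of 8 of the 43 members there. Without this array 54 of 92 members had the higher mandibular mean instead of 44, and 47 did once array medians were set equal.

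**Figure D4:**
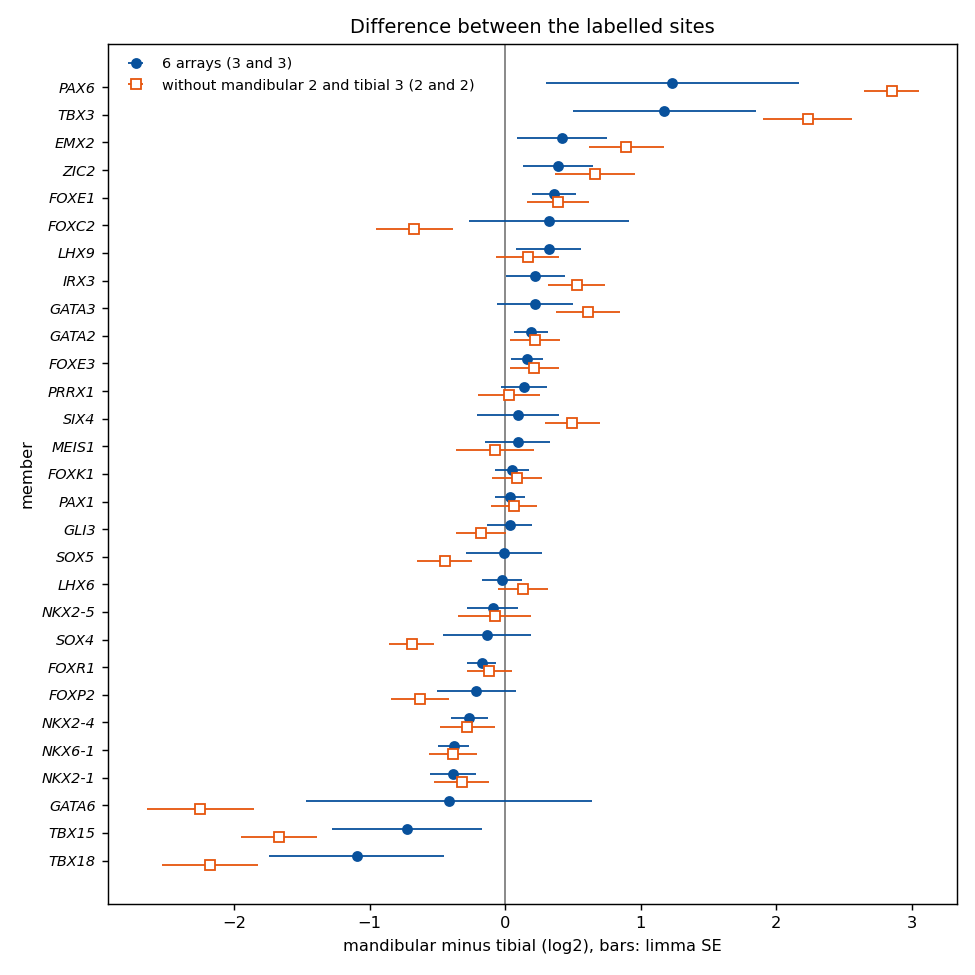
Difference of mandibular minus tibial cultures (log2, horizontal axis) for 29 named members, 1 row a gene, with bars for the limma standard error. Filled circles use all 6 arrays and open squares leave out the arrays labelled mandibular 2 and tibial 3. For GATA6, TBX15, TBX18, PAX6 and TBX3 the open squares lie farther from 0 than the circles, while FOXC2 changes side.

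The arrays shared an order across families. For 10 of the 13 members with a range of at least 1, the arrays labelled mandibular 1, mandibular 3 and tibial 3 held either the 3 highest or the 3 lowest values, as they did for 47.0% of the 1623 named genes with such a range. They were the highest for PAX6, TBX3, EMX2 and GATA3 and the lowest for GATA6, TBX18, FOXC2, TBX15, SOX5 and FOXP2. For none of the 13 were the 3 highest values those of 1 labelled site, which was so for 5.48% of those 1623 genes. The exceptions to the shared order were ZIC2, LHX9 and SIX4. At the largest gap between neighbouring values, mandibular 1, mandibular 3 and tibial 3 lay together above the gap for PAX6, mandibular 2, tibial 1 and tibial 2 did for GATA6, TBX18 and TBX15, and mandibular 2 stood alone for FOXC2, LHX9 and SOX5. Of the 1623 genes, 4.37%, 8.69% and 6.96% had these splits. For TBX3 and EMX2 tibial 1 alone lay below the gap, as for 11.4% of the 1623. Mandibular 1 alone lay above it for ZIC2 and GATA3, as for 2.34%. Below the gap lay mandibular 2 and tibial 1 for SIX4, and mandibular 3 and tibial 3 for FOXP2.

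Over all 92 members the array pair with the smallest root mean square difference was mandibular 3 and tibial 3, at 0.25 log2 units, followed by mandibular 1 and tibial 3 at 0.28 and mandibular 1 and 3 at 0.31. The largest was mandibular 1 and tibial 1, at 0.72. Mandibular 2 lay nearer to tibial 2 and tibial 1, at 0.39 and 0.41, than to mandibular 3 and 1, at 0.54 and 0.66. With the 13 wide-ranging members left out the distances were all between 0.23 and 0.33, and the nearest pairs were then mandibular 1 and tibial 3, and mandibular 3 and tibial 3. Over all named genes the pair mandibular 3 and tibial 3 was also nearest, at 0.27.

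Repeated probe sets were available for 6 members, FOXB2, FOXP3, GLI1, GLI3, SOX17 and SOX5. The other probe set of SOX5 measured 4.81, 6.04 and 5.29 against 5.24, 5.40 and 5.06, also highest on mandibular 2, but its difference was 0.15 where the probe set used gave -0.01. Without mandibular 2 and tibial 3 the values were -0.26 and -0.45. The 3 probe sets of GLI3 all had mandibular 2 and tibial 2 on top, with differences of 0.03, 0.03 and 0.02. The 2 probe sets of FOXP3, a factor of regulatory T cells chosen after its values were seen, differed in sign, with -0.05 and 0.05. Those of SOX17, also chosen after its values were seen, did so too, with 0.013 and -0.042.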

How the data were processed

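The deposited values are log2 levels per probe set that the authors made with RMA, in Affymetrix Expression Console and Transcriptome Analysis Console 3.0, per the submitters' processing notes. The genome build and annotation behind the array were not given in the sources used here, so no coordinates or sequences are given. Of 27558 probe sets, 13157 had 1 gene symbol in the platform annotation, 523 several and 13878 none, 7 symbols were updated through their Entrez number, and 11691 probe sets with usable symbols stood for 10872 genes.

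Mandibular and tibial arrays were compared with limma 3.58.1 in R 4.3.3, with empirical Bayes variances over all probe sets and Benjamini-Hochberg adjustment over all of them, at 0.05. The fit was tested on simulated data. No label says which samples share a pig, so p-values measure the spread between these cultures. The members, gene lists and the pair of arrays left out were chosen with earlier results of these data known. Named were TBX3, the member with the highest mean of each family, those with a range of at least 1, up to 5 a direction without overlap, and up to 4 of each partner, hedgehog and related list by range. Genes outside this rule are marked as picked with values in view. Alternatives left out single arrays, left out the pair, added a replicate block, array weights or centring, filtered low levels, averaged probe sets, and changed the variance model.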

Additional observations from a re-analysis of the deposited data

How the results depend on the processing

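No probe set was called with all arrays, and 0 to 2 were when single arrays were left out, with 1 without tibial 1 and 2 without tibial 3. Without the arrays labelled mandibular 2 and tibial 3, 195 probe sets and 1 member (PAX6, 2.85) were called, as were DACH1 and LHX8 among the partner and related factors. Members without overlap numbered 7, 13 to 21 with single arrays left out, where 12.7% to 21.7% of all probe sets did not overlap, and 35 without both. Deviations of same-numbered arrays correlated at -0.03, 0.21 and 0.47, and those of differently numbered arrays between -0.49 and 0.36. With 3 arrays a site, whose deviations sum to 0, these values cannot decide whether the numbers are pairs. The numbers were not taken as pairs because no label ties them to a pig. With the replicate block, 0 probe sets and 0 members were called, and no called result changed. The median member difference of -0.02 became 0.02 without tibial 1. Differences of named genes that changed sign were as follows, and the cause was not tested. Without both arrays EYA4 was 0.60, FOXC2 -0.67, GLI3 -0.18, LHX6 0.13, MEIS1 -0.075 and SHH 0.075. With array weights EYA4 was 0.072, GLI3 -0.022, IHH 0.0087, LHX6 0.023 and SOX5 0.0065. With centred arrays LHX6 was 0.00054 and SOX5 0.015, and with averaged probe sets SOX5 was 0.070. With single arrays left out, 25 of 41 named genes kept their sign. The other 16 ranged from -0.16 to 1.10 for DACH1, -0.41 to 0.45 for EYA4, -0.27 to 0.81 for FOXC2, -0.012 to 0.11 for FOXK1, -0.051 to 0.49 for GATA3, -1.48 to 0.24 for GATA6, -0.083 to 0.15 for GLI3, -0.33 to 0.051 for IHH, -0.13 to 0.053 for LHX6, -0.81 to 0.14 for LMO3, -0.072 to 0.29 for MEIS1, -0.27 to 0.085 for NKX2-5, -0.024 to 0.081 for PAX1, -0.084 to 0.44 for SIX4, -0.44 to 0.050 for SOX4 and -0.28 to 0.22 for SOX5. Levels near the lower quartile, as for ZIC2, FOXP2 and TBX5, limit what their differences show. NKX6-1, NKX2-1, NKX2-4 and FOXE1 had means of 4.66, 5.16, 5.18 and 5.12, under the median of all values. Whether these levels were above background was not tested.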
